A study of Mus musculus with 16 samples.

Results

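The nuclear genes examined here encode 10 proteins of mitochondrial protein quality control: the chaperones Hspd1, Hspe1, Hspa9, Dnaja3 and Trap1, and the proteases or protease subunits Lonp1, Clpp, Clpx, Yme1l1 and Afg3l2. They were chosen by name, as genes commonly listed for the mitochondrial unfolded protein response. No rule on their values was used, but earlier results of these data were known. All 10 were in the table of 40840 genes, and all 10 were among the 20444 genes that passed the filter on low counts. The cells were one mouse line of hepatoblasts that lack p53 and overexpress Myc, which the labels class as hepatocellular carcinoma (HCC). Cells received sorafenib, a multikinase inhibitor used against HCC, at 8.5 µM per the study's methods, or DMSO as vehicle, over 48 hours or 7 days, and mRNA was sequenced from 4 replicates in each of the 4 groups. Every group, the DMSO controls included, carries the p53 knockout and the Myc overexpression, so that neither can be compared with its absence. The sources do not say whether replicates were separate cultures, so that p-values measure the spread between these libraries, which may be technical.

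Libraries held 16586254 to 30828427 counts (median 26360677). Of 12 markers of hepatoblasts and liver epithelium, Dlk1, a surface protein of hepatoblasts, had 3488 to 38122 counts per library, and Krt19, Sox9 and Foxa2 had at least 200 in every library. Hnf4a, the nuclear receptor that defines hepatocytes, had 0 counts in all 16 libraries, Alb had 3 counts in total, and Afp, a secreted protein of fetal liver, had 0 to 14 per library. Col1a1 and Col3a1, collagens of fibroblasts and stellate cells, were abundant. The markers that define the labelled cell type were thus present only in part, and the cells are called by the name of the line. Trp53 had 1268 to 4799 counts and Myc 4226 to 17797 per library, with no library of another genotype to set them against. The summed liver epithelium markers moved with the conditions, from 35062 to 36425 normalized counts in DMSO at 48 hours to 12960 to 14892 with sorafenib, and from 18856 to 20684 to 7092 to 7361 at 7 days. Most of this sum was Dlk1 (means of 32234 and 10444 at 48 hours and 16766 and 4020.2 at 7 days), while Sox9 went from 213 to 664 and from 349.7 to 904, and Foxa2 from 211 to 722 and from 480.1 to 862. Of the 9 liver epithelium markers tested, 2 were higher and 5 lower at 48 hours, and 3 were higher and 6 lower at 7 days. The 8 fibroblast and stellate markers summed to 117416 to 119288 and 126260 to 139612 at 48 hours and to 90437 to 95070 and 63681 to 65230 at 7 days. This sum was thus higher with sorafenib at the first time and lower at the second, and most of it was Col1a1 and Col3a1. At 48 hours the mean of Col1a1 went from 41939 to 81072 and that of Col3a1 from 70779 to 46413. Of the 8 markers, 3 were higher and 4 lower at 48 hours (median log2 fold change −0.45), and 2 were higher and 6 lower at 7 days (median −1.63). The 5 endothelial and 6 blood and macrophage markers summed to at most 228 and 153. Their part in the results below was not tested. In bulk RNA, fewer cells of a type and less RNA per cell cannot be told apart.

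One library stood apart along the genome. In replicate 2 of sorafenib at 48 hours, genes of the last part of chromosome 14 (GRCm39) and of chromosomes 15 to 19 and X stepped down by 0.73 on the log2 scale relative to earlier genes, against a step of at most 0.07 in the 15 other libraries. The stretch held 14.3% of that library's counts and 20.8% to 21.6% of the counts of the others. Of 17944 tested genes placed on the genome it contains 3893, and 6 of the 10 genes examined: Hspa9, Dnaja3, Trap1, Lonp1, Clpp and Afg3l2. What lowered these counts was not tested. Log2 fold changes at 48 hours of genes in the stretch, and counts of called genes that change, are therefore given with the library and without it. By the chi-square per gene between replicates (1 for counting error alone), replicate 4 of DMSO at 7 days differed most. It was at 41.4 to 55.0 against the other replicates of its group, which were at 1.8 to 2.8 among themselves. The lowered library was at 27.0 to 30.7, and pairs of DMSO at 48 hours at 4.2 to 32.7. The cause of these differences was not tested.

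Most mitochondrial proteins are made in the cytosol and imported unfolded, and must then be folded or, when damaged, degraded inside the organelle. Hspa9 (mortalin, mtHsp70) pulls proteins through the inner membrane and folds them with the J-protein Dnaja3, the Hspd1-Hspe1 chamber (Hsp60 and its lid Hsp10) encloses and folds them, and Trap1 is the Hsp90 of the matrix. Lonp1 degrades oxidized matrix proteins, Clpp is a matrix protease whose substrates are unfolded by Clpx, Afg3l2 forms the m-AAA protease that faces the matrix, and Yme1l1 forms the i-AAA protease that faces the intermembrane space. The mitochondrial unfolded protein response is the raised transcription of such genes in the nucleus when proteins misfold in mitochondria, and in mammals the factors Atf4, Atf5 and Ddit3 (CHOP) are known for their part in it.

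Hspd1 and Hspe1 are neighbours that are transcribed away from each other. The annotated start of Hspd1 (ENSMUSG00000025980.16, chr1:55116994-55127183 of GRCm39, minus strand) and that of Hspe1 (ENSMUSG00000073676.6, chr1:55127291-55130466, plus strand) are separated by 107 bases, so that a single stretch lies upstream of both genes. The stretch is shown because the counts of the pair are read together below, with the letters of 3 overlapping heat shock element units in capitals (TTCNNGAA from bases 35 and 45 of the gap, GAANNTTC from base 40), read 5′ to 3′ on the plus strand.
Hspd1-Hspe1 gap, chr1:55127184-55127290: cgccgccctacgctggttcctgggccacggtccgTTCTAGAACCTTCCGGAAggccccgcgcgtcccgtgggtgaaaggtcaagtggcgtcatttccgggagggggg
Its GC content was 68.2%. Both motifs are their own reverse complements, so that one match counts for both strands. Searched from 250 bases before to 50 bases after the annotated start of 17945 tested genes, coding or noncoding, GAANNTTC was in 6.35% of promoters and TTCNNGAA in 7.47%. Of the 10 genes, Hspd1 and Hspe1 held both through this shared stretch, and Clpp held TTCNNGAA. The core of the C/EBP-ATF response element, TGATGNAA, was in 2.75% of promoters and in 0 of the 10, on either strand. CCAAT, a short promoter box found in 38.1% of promoters, was in 7 of the 10. A match is a string of letters and no measured binding.

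The other genes are on GRCm39 at chr16:4501927-4525555 (Dnaja3, plus strand), chr16:3857835-3895716 (Trap1, minus), chr17:56921292-56933931 (Lonp1, minus), chr17:57296971-57303369 (Clpp, plus), chr9:65201542-65233987 (Clpx, plus) and chr2:23046100-23089281 (Yme1l1, plus), with Hspa9 and Afg3l2 both on the minus strand of chromosome 18. Some share exon bases with a gene on the opposite strand: Hspa9 with the long noncoding RNAs Gm56488 (528 bases) and Gm56507 (163), which are not analysed here, Clpp with the noncoding Gm33509 (276), Lonp1 with Rpl36 (214) and Trap1 with Dnase1 (54). Gm33509 had group means of at most 6.8 normalized counts. Rpl36, a ribosomal protein gene in the lowered stretch, was lower with sorafenib at 48 hours (log2 fold change −0.60, or −0.45 without the lowered library) and at 7 days (−0.37), the opposite direction to Lonp1. Dnase1, also in the stretch, was lower as well (−0.48, or −0.35 without that library, and −0.37), against a higher Trap1 at 7 days. Whether the counting used strand is not given in the sources used here.

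Per kilobase of exon, the folding chamber and mtHsp70 were the most abundant of these transcripts in DMSO at 48 hours. Hspd1 had 8360.1 ± 306 normalized counts per kilobase (SD, n = 4), Hspa9 5811 ± 133 and Hspe1 4881 ± 65.2. Trap1 (2088 ± 56.6) and Lonp1 (1727 ± 42.1) followed. Clpp, Yme1l1, Afg3l2 and Dnaja3 lay between 659 and 1081, and Clpx, the unfoldase of the Clp protease, was lowest with 299.9 ± 11.5, so that Hspd1 was 27.9 times as high. No neighbours in this order overlapped among the 4 libraries. Together the 10 genes held 0.266% to 0.280% of a library's counts in this group. The share was 0.349% to 0.442% with sorafenib at 48 hours, where the lowest value was replicate 2, and 0.320% to 0.329% and 0.406% to 0.412% in DMSO and sorafenib at 7 days.

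Sorafenib for 48 hours raised 4 of the 5 chaperones and Lonp1. Hspa9, Lonp1 and Dnaja3 rose most, Hspd1 and Hspe1 by less, and the log2 fold changes of the other proteases lay between −0.17 and 0.10. At a false discovery rate (FDR, the Benjamini-Hochberg adjusted p of edgeR's quasi-likelihood test over all tested genes) under 0.05, 6 of the 10 genes were higher and 1 lower, with 3 not called. Over all tested genes 54.6% were called at this time, 26.9% higher and 27.7% lower, so that a call alone was common. Shares over all genes, here and below, include genes with few counts, whereas the lowest count of the 10 genes was 645. In the fit to 12158 genes with at least 10 counts in every library, 9196 were called, 4445 higher and 4751 lower. Of the 10 genes, 6 were called in that fit. The 2 groups did not overlap for 6 of the 10 genes (Hspd1, Hspe1, Hspa9, Dnaja3, Lonp1 and Clpx) and for 48.0% of all genes. Without replicate 2 of sorafenib, 7 were higher and 1 lower, with 57.0% of all genes called (28.5% higher and 28.6% lower), and the groups did not overlap for 8 genes, Trap1 and Yme1l1 added, and for 55.5% of all genes. The median log2 fold change of the 10 was 0.25, against −0.05 over all genes, and 0.30 against −0.04 without that library. With 4 libraries on each side, an exact permutation test (two-sided) cannot give a p below 0.0286, and every gene whose groups do not overlap has that value.

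At 7 days the response was divided. Hspa9, Dnaja3, Trap1 and Lonp1 were higher with sorafenib, and Hspe1, Clpp and Yme1l1 were lower. That made 4 higher and 3 lower of 10, beside 56.8% of all genes called, 28.9% higher and 27.9% lower. In the fit to 12158 genes with at least 10 counts in every library, 9146 were called, 4686 higher and 4460 lower, with 7 of the 10 among them. The groups did not overlap for 8 of the 10 genes, all but Hspd1 and Clpx, and for 56.8% of all genes. The fit without replicate 2 of sorafenib at 48 hours, which lowers the estimate of the spread for all groups, added Afg3l2 to the lower genes, with 61.9% of all genes called. The median log2 fold change of the 10 was −0.02, against 0.02 over all genes. The response at 7 days differed from that at 48 hours for 5 of the 10 (1 more positive, 4 more negative), beside 36.8% of all genes, and for 9 of the 10 without that library, beside 43.0%.

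**Figure D1:**
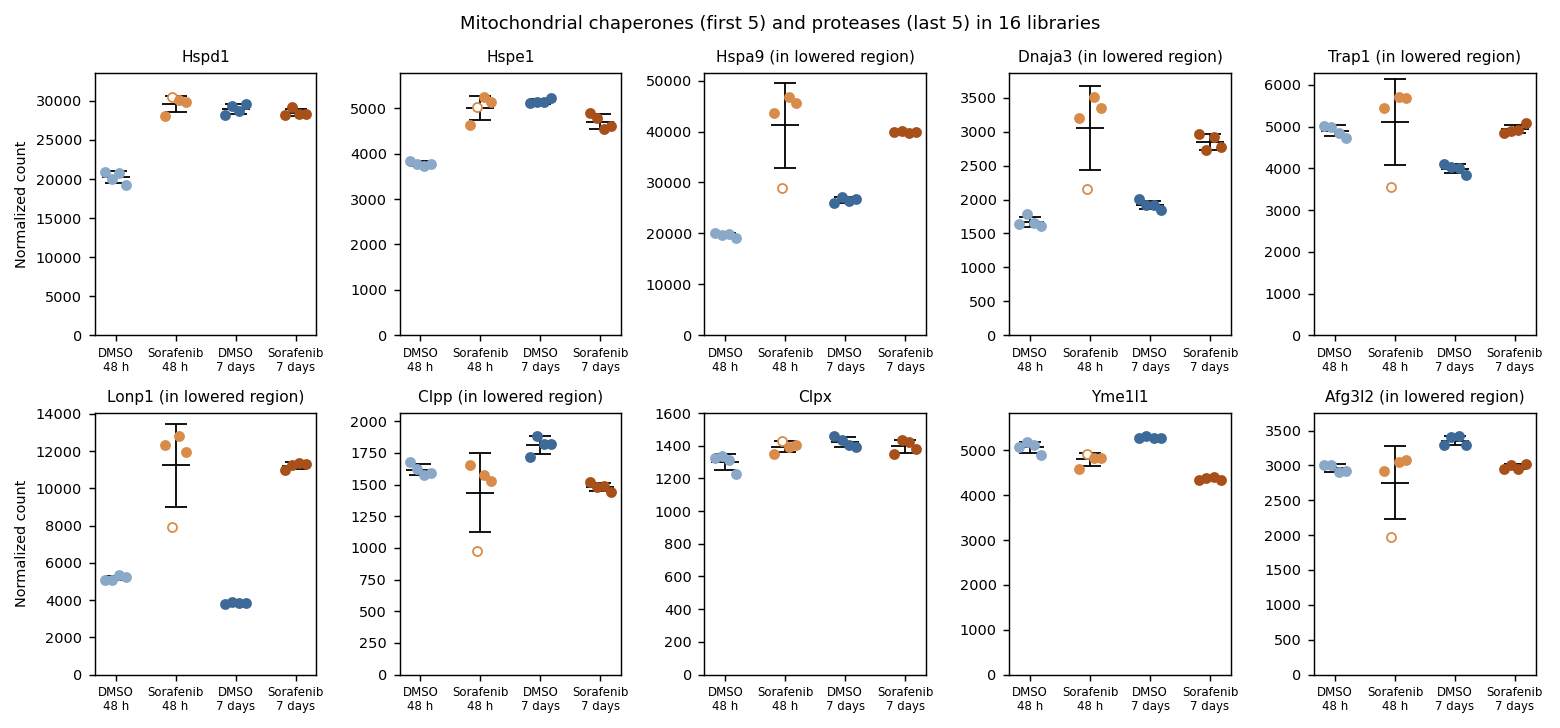
Normalized counts of the 10 genes (vertical axes, each from 0) in the 16 libraries, by group. Each point is a library, the open point is replicate 2 of sorafenib at 48 hours, and bars show the mean and SD of 4. Lonp1 separates sorafenib from DMSO at both times, whereas Hspd1 is low in the 4 DMSO libraries of 48 hours and between 28084 and 30494 in the 12 others.

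Hspd1, the Hsp60 subunit of the folding chamber, had 20902, 20064, 20768 and 19292 normalized counts in the 4 DMSO libraries of 48 hours and 28084, 30494, 30063 and 29849 in the sorafenib libraries. At 7 days the values were 28251, 29366, 28713 and 29575 in DMSO and 28199.6, 29169, 28324 and 28320.2 with sorafenib. Sorafenib was above DMSO in all libraries at 48 hours, while the groups of 7 days overlapped and both lay at the level of the treated cells of 48 hours. The log2 fold change was 0.55 ± 0.03 (SE; 1.46-fold, FDR 6.66e-12) at 48 hours and −0.02 ± 0.03 (FDR 0.546) at 7 days. The 2 responses differed by −0.57 ± 0.04 (FDR 2.90e-09). This difference came with a rise between the controls: DMSO at 7 days was 1.43-fold above DMSO at 48 hours (0.52 ± 0.03 on the log2 scale, FDR 3.89e-11).

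Hspe1, the Hsp10 lid of the same chamber, had 3845, 3771, 3723 and 3770.2 normalized counts in DMSO and 4635, 5037, 5246 and 5133 with sorafenib at 48 hours. The values at 7 days were 5107, 5128, 5144 and 5225 and 4893, 4775, 4538 and 4609.7. The groups did not overlap at either time, with sorafenib above DMSO at 48 hours and below it at 7 days. The log2 fold changes were 0.41 ± 0.04 (FDR 5.45e-09) and −0.13 ± 0.04 (FDR 0.00372), a difference of −0.54 ± 0.05 (FDR 4.78e-08). As for Hspd1, the DMSO libraries rose with time, by 0.45 ± 0.04 on the log2 scale (FDR 2.28e-09). The 2 transcripts of the shared gap did not keep a constant proportion. Per kilobase, Hspd1 was 1.71 ± 0.06 times Hspe1 in DMSO and 1.89 ± 0.05 times with sorafenib at 48 hours (SD, n = 4), with no overlap between 1.63 to 1.78 and 1.83 to 1.94. At 7 days the ratio was 1.80 ± 0.03 in DMSO and 1.94 ± 0.07 with sorafenib, again with no overlap (1.77 to 1.83 and 1.84 to 1.99).

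**Figure D2:**
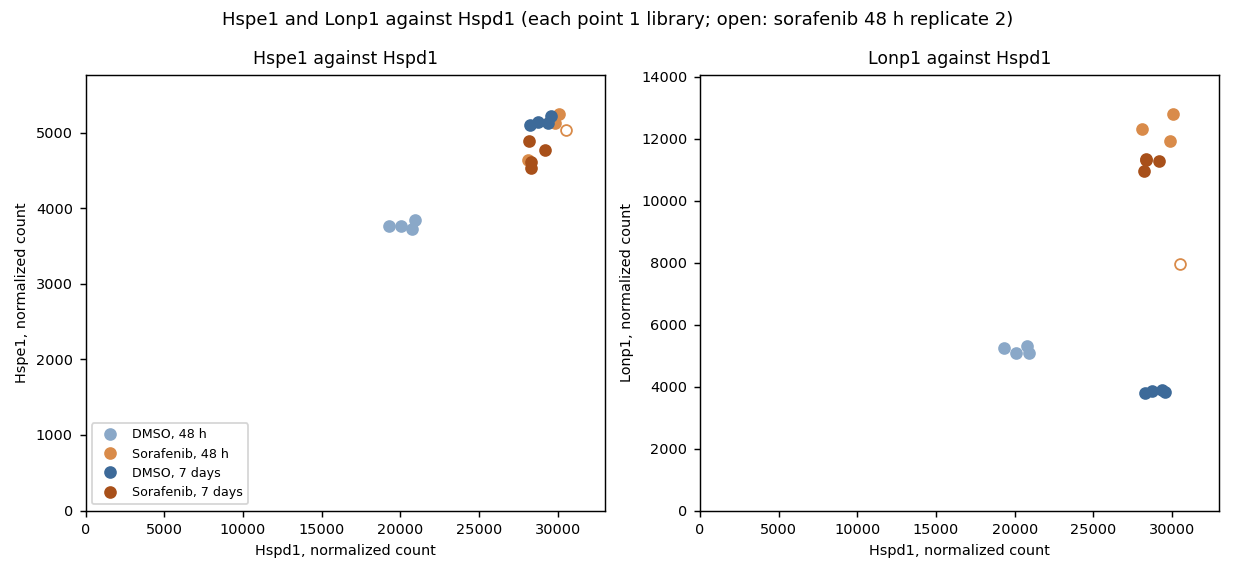
Normalized counts of Hspe1 (left) and Lonp1 (right) against those of Hspd1, each point a library and both axes linear from 0. Hspe1 is low only where Hspd1 is low, in DMSO at 48 hours, while Lonp1 lies between 3792 and 12796 among the 12 libraries in which Hspd1 is at 28084 or more.

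Hspa9, the mitochondrial Hsp70, had 20082, 19719, 19916 and 19058 normalized counts in DMSO and 43568, 28953, 46778 and 45581 with sorafenib at 48 hours, where the low second value is the library with lowered counts. At 7 days it had 25923, 27195, 26373 and 26772 in DMSO and 39865, 40061, 39735 and 39876 with sorafenib. Every sorafenib library, the lowered one included, was above every DMSO library of its time. The log2 fold change at 48 hours was 1.07 ± 0.09 (FDR 4.73e-09), and without the lowered library 1.20 ± 0.03 (FDR 8.98e-38), which is 2.3-fold. It was 0.59 ± 0.09 at 7 days (FDR 1.58e-05), a change from 48 hours of −0.48 ± 0.13 (FDR 0.00616) or, without that library, −0.62 ± 0.04 (FDR 1.38e-19). Its DMSO libraries rose with time as well, by 0.43 ± 0.09 (FDR 5.49e-04).

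Dnaja3 (Tid1), the J-protein that stimulates Hspa9, followed it at a lower level. Its normalized counts were 1644, 1785, 1649.8 and 1614 in DMSO and 3198, 2152, 3511 and 3354 with sorafenib at 48 hours. They were 2001, 1925, 1921 and 1853 and 2961, 2737, 2927 and 2771 at 7 days. The groups did not overlap at either time, and the second sorafenib library of 48 hours was again the lowest of its group. The log2 fold changes were 0.87 ± 0.10 at 48 hours (FDR 1.59e-07), or 1.01 ± 0.04 without that library (FDR 1.53e-29), and 0.57 ± 0.10 at 7 days (FDR 3.66e-05). Their difference was −0.31 ± 0.14 and was not called with all libraries (FDR 0.0861), but −0.44 ± 0.05 and called without the lowered one (FDR 7.50e-11).

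Trap1, the Hsp90 of the matrix, was called at 48 hours only with the lowered library left out or corrected by an offset, among the alternatives run. It had 5014, 4996, 4841 and 4735 normalized counts in DMSO and 5451, 3559.6, 5707 and 5696 with sorafenib. The second sorafenib value lies below all DMSO values and the other 3 lie above them. With all libraries the log2 fold change was 0.06 ± 0.09 (FDR 0.609), and without the lowered library 0.20 ± 0.03 (FDR 1.84e-08). At 7 days the values were 4091, 4028, 4003 and 3833 in DMSO and 4845, 4899, 4925 and 5079 with sorafenib. These groups did not overlap, with a log2 fold change of 0.31 ± 0.09 (FDR 0.00839). Between the times DMSO fell (log2 fold change −0.30 ± 0.09, FDR 0.0125), in the opposite direction to Hspd1, Hspe1 and Hspa9.

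Lonp1, the AAA+ protease of the matrix, was the member with the highest fold change at both times. At 48 hours Lonp1 and Hspa9 differed by less than their errors with all libraries (1.12 ± 0.09 and 1.07 ± 0.09 on the log2 scale). The normalized counts of Lonp1 were 5071, 5080.3, 5323 and 5255 in DMSO and 12321, 7946, 12796 and 11939 with sorafenib at 48 hours. At 7 days they were 3792, 3875, 3859 and 3839 and 10963, 11279, 11345 and 11328. Sorafenib was above DMSO in every library of both times, also in the lowered one. The log2 fold change at 48 hours was 1.12 ± 0.09 (FDR 2.01e-09) and 1.25 ± 0.03 without that library (2.38-fold, FDR 4.13e-39). It was 1.55 ± 0.09 at 7 days (2.92-fold, FDR 1.45e-11), higher than at 48 hours by 0.43 ± 0.13 (FDR 0.0128) or by 0.29 ± 0.04 without it (FDR 1.94e-09). In contrast to Hspd1, its DMSO libraries fell with time (−0.43 ± 0.09, FDR 5.54e-04). Without the lowered library its level with sorafenib was also lower at 7 days, at 11228 ± 179 against 12352 ± 429 normalized counts at 48 hours (log2 fold change −0.14, FDR 1.44e-05, against −0.0038 and FDR 0.984 with all libraries).

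Of the Clp protease, Clpp was lower at 7 days and Clpx was slightly higher at 48 hours. Clpp, its proteolytic subunit, had 1681, 1623, 1579 and 1592 normalized counts in DMSO and 1658, 975, 1576 and 1532 with sorafenib at 48 hours, and the groups overlapped. The log2 fold change was −0.17 ± 0.10 (FDR 0.163), or −0.03 ± 0.04 without the lowered library (FDR 0.528) and was called as lower without replicate 1 of sorafenib (−0.27, FDR 0.0366) and with total counts as the scaling (−0.24, FDR 0.0282). At 7 days Clpp had 1715, 1881, 1824 and 1823 in DMSO and 1523, 1479.7, 1485 and 1441 with sorafenib, which was lower in every library (−0.29 ± 0.10, FDR 0.015). Clpx, its unfoldase, lies outside the lowered stretch. It had 1324, 1339, 1315 and 1228 and 1349.8, 1432, 1391 and 1407 at 48 hours, a log2 fold change of 0.10 ± 0.04 whose FDR of 0.0299 was just under the threshold and was over it without any one of 6 of the 8 libraries of that time. It was over the threshold as well in DESeq2 (0.0551), with other scalings, with the stricter filter and with the 8 libraries of that time alone (up to 0.589). At 7 days it was not called (−0.02 ± 0.04, FDR 0.605).

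Of the membrane proteases, Yme1l1 was lower at both times, and Afg3l2 was not called at either time with all libraries. Yme1l1 of the i-AAA protease had 5079, 5178, 5121 and 4892 normalized counts in DMSO and 4584, 4924, 4839 and 4840.4 with sorafenib at 48 hours, with overlap and a log2 fold change of −0.08 ± 0.03 (FDR 0.0255), a call that was lost without replicate 2 of DMSO (FDR 0.0779) and with a filter of 1 count in any library (FDR 0.305). At 7 days 5267, 5313, 5285 and 5282 in DMSO stood against 4341, 4393, 4408 and 4348 with sorafenib, without overlap. There the log2 fold change was −0.27 ± 0.03 (FDR 6.90e-08), a change from 48 hours of −0.19 ± 0.04 (FDR 6.95e-04, or 0.108 with total counts as the scaling). Afg3l2 of the m-AAA protease had 3007, 3012, 2907 and 2913 and 2919.9, 1966, 3049 and 3082 at 48 hours, where the groups overlapped with and without the lowered library (−0.10 ± 0.09, FDR 0.36, and 0.03 ± 0.03, FDR 0.409). At 7 days it had 3296, 3401, 3417 and 3295 in DMSO and 2955, 3012, 2946 and 3013 with sorafenib. Although these groups did not overlap, the log2 fold change of −0.17 ± 0.09 was not called with all libraries (FDR 0.104), and was called without the lowered one (FDR 1.62e-07).

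**Figure D3:**
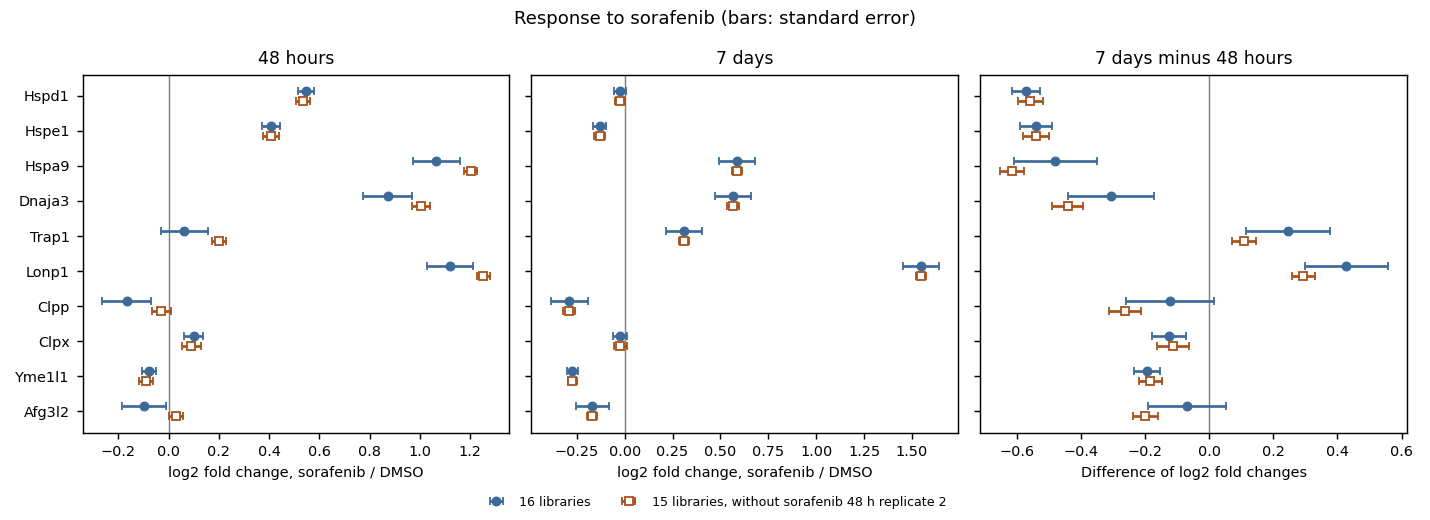
Log2 fold changes of sorafenib against DMSO at 48 hours and 7 days, and their difference (horizontal axes; bars are standard errors), with all 16 libraries (filled circles) and without replicate 2 of sorafenib at 48 hours (open squares). Hspd1 and Hspe1 lie above 0 at 48 hours and at or below it at 7 days, and Lonp1 is farthest to the right at both times. At 48 hours and for the difference, the 6 genes of the lowered stretch are those whose 2 symbols part.

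Time in culture without the drug was associated with changes of its own. Between DMSO at 48 hours and at 7 days, 6 of the 10 genes differed, beside 49.4% of all genes, with Hspd1, Hspe1, Hspa9 and Clpx higher and Trap1 and Lonp1 lower. All 10 differed without the lowered library, beside 11242 of 20353 genes tested in that fit. This came through a smaller estimate of the spread, with fold changes from 0.741 for Lonp1 to 1.43 for Hspd1. Between the 2 sorafenib groups, 2 of the 10 differed, beside 39.7% of all genes: Hspe1 (−0.09 ± 0.04, FDR 0.047) and Yme1l1 (−0.13 ± 0.03, FDR 8.84e-04), both lower at 7 days. The call of Hspe1 was lost without any one of 13 of the 16 libraries. Without the lowered library 7 of the 10 genes differed, beside 9047 of 20353 genes tested. The labels give no cell density or passage for any group.

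By the rule of closest likeness, the genes most like Hspd1 among 10645 genes over the 16 libraries were Atp2a2, Tmed5, Pfdn4, Dnajc2 and Wwc1, with Pearson's r of log2 normalized counts from 0.985 to 0.987. Those most like Lonp1 were Gpc6, Vldlr, Cryzl1, Grina and Tsc22d3, from 0.983 to 0.995. The libraries fall into 4 groups, so that these values mostly reflect the order of 4 group means, and all 5 genes like Lonp1 lie in the stretch that was lowered in one library. Without that library the closest to Lonp1 were Vldlr, Gpc6, Prrx1, Pla2g12a and Angptl6, and Atp2a2, Tmed5 and Pfdn4 stayed among the 5 closest to Hspd1.

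Among regulators of the response, Ddit3 and Atf5 had the highest log2 fold changes at 48 hours of the 10 genes and the 7 related lists described here. At 7 days Ddit3 was highest, and Atf5 (1.57) and Lonp1 (1.55) differed by less than their errors. Of 11 regulators, 4 were higher and 3 lower at 48 hours, and 5 were higher and 4 lower at 7 days (6 and 4 without the lowered library). Over all genes, 26.9% were higher and 27.7% lower at 48 hours, and 28.9% were higher and 27.9% lower at 7 days. Atf5, the mammalian counterpart of the factor that drives this response in worms, went from 909 ± 22.7 to 5049 ± 292 normalized counts at 48 hours (2.47 ± 0.04 on the log2 scale, FDR 5.21e-20) and from 1903 ± 41.9 to 5641 ± 158 at 7 days (1.57 ± 0.04, FDR 1.19e-17). Ddit3, which encodes CHOP, went from 276 ± 16.2 to 3271 ± 195 (3.57 ± 0.05, FDR 7.00e-21) and from 393 ± 11.3 to 2941 ± 57.6 (2.90 ± 0.05, FDR 3.62e-20). Atf4, the effector of the integrated stress response, lies in the lowered stretch and rose by 1.60 ± 0.08 at 48 hours (FDR 2.00e-12; 1.72 without the lowered library) and by 0.97 ± 0.08 at 7 days (FDR 3.41e-09). All 3 responses were smaller at 7 days than at 48 hours, with differences of −0.63 ± 0.12 for Atf4 (−0.75 without the lowered library), −0.90 ± 0.06 for Atf5 and −0.66 ± 0.07 for Ddit3 (FDR 2.24e-04, 8.97e-11 and 2.15e-07), whereas that of Lonp1 was larger. The DMSO means of all 3 were higher at 7 days than at 48 hours, for Atf4 8774 against 5017. With sorafenib, Atf4 was at 15179 at 48 hours, the lowered library included, and at 17177 at 7 days. The mean of Atf5 with sorafenib was also higher at 7 days, and that of Ddit3 was lower.

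The other regulators moved less. Eif2ak1, which encodes the kinase HRI that relays mitochondrial stress to the translation factor eIF2, was lower at both times (−0.25 ± 0.04 and −0.49 ± 0.04, FDR 1.44e-05 and 6.10e-10). Dele1, which carries the mitochondrial signal to HRI, was at 0.13 ± 0.07 at 48 hours (FDR 0.13; 0.23 and FDR 1.53e-06 without the lowered library) and rose by 0.21 ± 0.07 at 7 days (FDR 0.0142). Ubl5, a ubiquitin-like protein of the response in worms, fell at both times (−0.59 ± 0.05 and −0.25 ± 0.05), and so did Nrf1, a factor for mitochondrial genes (−0.17 ± 0.05 and −0.34 ± 0.04). Cebpb, a partner of CHOP, was at 0.21 ± 0.11 at 48 hours (FDR 0.113, or 0.0068 without replicate 4 of sorafenib) and fell at 7 days (−0.46 ± 0.11, FDR 0.00106). Hsf1, the heat shock factor, was not called at either time (−0.07 ± 0.07 and 0.11 ± 0.07, FDR 0.413 and 0.174), though without the lowered library it was at 7 days (FDR 0.00128) and had a value of 0.03 at 48 hours. Of the mitochondrial and nuclear deacylases, Sirt3 was called at 7 days (0.43 ± 0.11, FDR 0.0019) and not at 48 hours (0.07 ± 0.10, FDR 0.596). Sirt7 was called at 48 hours (0.17 ± 0.06, FDR 0.018), a call lost without replicate 3 or 4 of DMSO or the lowered library (FDR 0.0755 to 0.138), and not at 7 days (−0.00 ± 0.05, FDR 0.963).

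Other chaperones of the mitochondrion were mostly higher. The counts of this and the following lists stand beside 26.9% of all genes higher and 27.7% lower at 48 hours, and 28.9% higher and 27.9% lower at 7 days. Of the 12158 genes with at least 10 counts in every library, 4445 were higher and 4751 lower at 48 hours, and 4686 and 4460 at 7 days. Of 8 co-chaperones and further chaperones, 5 were higher and 1 lower at 48 hours (median log2 fold change 0.23) and 6 higher and 0 lower at 7 days (median 0.30). Clpb, a disaggregase of the intermembrane space, rose by 0.62 ± 0.03 and 0.30 ± 0.03, and Hscb, the J-protein of iron-sulfur cluster assembly, by 0.46 ± 0.07 and 1.20 ± 0.07. Dnajc19, of the import motor, rose by 0.38 ± 0.07 and 0.34 ± 0.07, and Grpel2, a nucleotide exchange factor of Hspa9 in the lowered stretch, by 0.29 ± 0.09 (0.41 without the lowered library) and 0.31 ± 0.09. The call of Grpel2 at 48 hours was lost without replicate 4 of DMSO or 1, 3 or 4 of sorafenib (FDR up to 0.0978).

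Of 17 other mitochondrial proteases and protease partners, 9 were higher and 3 lower at 48 hours (median 0.15; 10 and 3 without the lowered library), and 6 were higher and 7 lower at 7 days (median −0.02). Lactb, a serine protease-like filament protein, rose by 1.74 ± 0.10 and 0.50 ± 0.09, Htra2, the protease of the intermembrane space, by 0.45 ± 0.04 at 48 hours with 0.04 ± 0.04 at 7 days (FDR 0.309), and Afg1l, an AAA ATPase of the inner membrane, by 0.45 ± 0.11 and 0.33 ± 0.12. Without replicate 3 or 4 of either group, the call of Afg1l at 7 days was lost (FDR up to 0.0672). Metap1d, a methionine aminopeptidase, rose by 0.15 ± 0.04 and 0.57 ± 0.04. Mipep, which trims imported precursors, fell (−0.15 ± 0.05 and −0.61 ± 0.05).

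The import machinery through which all of these proteins pass was called in both directions at 48 hours and mostly lower at 7 days. Of 26 genes, 10 were higher and 9 lower at 48 hours (median −0.04; 10 and 10 without the lowered library), while 1 was higher and 18 lower at 7 days (median −0.20), or 1 and 21 without the lowered library. The one higher at 7 days was Timm8a1, a small chaperone of the intermembrane space (0.32 ± 0.11), which had also risen at 48 hours (0.67 ± 0.12, or 0.81 without the lowered library). Its call at 7 days was lost without replicate 1 or 4 of DMSO or 3 of sorafenib (FDR up to 0.058). Timm17a, a channel subunit of the inner membrane, rose by 0.65 ± 0.06 at 48 hours and was at −0.09 ± 0.05 at 7 days (FDR 0.195). Tomm6 and Tomm5, small subunits of the outer membrane pore, fell at both times. The log2 fold changes were −0.87 ± 0.09 (−0.74 without the lowered library) and −0.57 ± 0.09 for Tomm6, and −0.30 ± 0.07 and −0.56 ± 0.07 for Tomm5. Timm21, of the inner membrane translocase, fell likewise, with −0.63 ± 0.10 (−0.50 without that library) and −0.57 ± 0.10.

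Chaperones of other compartments were called in both directions. Of 14 cytosolic chaperones, 4 were higher and 7 lower at 48 hours (median −0.12) and 4 higher and 4 lower at 7 days (median −0.05), or 5 and 7 and 4 and 6 without the lowered library. Hsp90aa1, the inducible cytosolic Hsp90, rose by 0.47 ± 0.03 and 0.33 ± 0.03. Hspa1b, an inducible Hsp70, fell at 48 hours (−0.69 ± 0.10, or −0.58 without the lowered library) and was at 0.09 ± 0.09 at 7 days (FDR 0.373). Hspa1a, another inducible Hsp70 of the list, was not called at 48 hours with all libraries and was higher at 7 days (0.46, FDR 0.0168). Hsp90ab1, the constitutive Hsp90, fell at 48 hours (−0.33 ± 0.09, or −0.19 without the lowered library). Cct5, of the cytosolic folding ring, fell at both times (−0.29 ± 0.10, or −0.15 without it, and −0.29 ± 0.10). Hspb1, a small heat shock protein, was at 0.07 ± 0.08 at 48 hours (FDR 0.512) and rose by 0.52 ± 0.07 at 7 days.

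Of 14 chaperones and folding factors of the endoplasmic reticulum, 5 were higher and 6 lower at 48 hours (median −0.06; 6 and 7 without the lowered library), and 4 were higher and 7 lower at 7 days (median −0.11). Hyou1, an Hsp70-type chaperone, rose by 0.76 ± 0.03 and 0.50 ± 0.03, and Dnajb11 by 0.69 ± 0.09 at 48 hours (0.82 without the lowered library) with 0.03 ± 0.09 at 7 days (FDR 0.769). Sdf2l1 fell (−0.83 ± 0.10, or −0.68 without it, and −1.01 ± 0.11), and so did the lectin chaperone Calr (−0.24 ± 0.02 and −0.69 ± 0.02). Creld2 fell too (−0.27 ± 0.11, or −0.12 without it, and −0.72 ± 0.10), though its call at 48 hours was lost without replicate 2 or 4 of DMSO (FDR up to 0.0617).

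Genes of mitochondrial DNA upkeep and mass were also called in both directions, with 5 of 12 higher and 3 lower at 48 hours (median 0.00) and 2 higher and 6 lower at 7 days (median −0.16; 3 and 6 without the lowered library). The outer membrane channels Vdac2 and Vdac3 rose, by 1.08 ± 0.03 and 0.86 ± 0.04 at 48 hours and 0.15 ± 0.03 and 0.56 ± 0.04 at 7 days. Vdac1, another such channel of the list, was not called at 48 hours (−0.03, FDR 0.539) and was lower at 7 days (−0.28, FDR 2.23e-07). Twnk, the helicase of mitochondrial DNA, fell (−0.60 ± 0.10, or −0.46 without the lowered library, and −0.49 ± 0.10), and so did Polrmt, its RNA polymerase (−0.36 ± 0.04 and −0.55 ± 0.04). These lists are described by their counts and medians, beside a median of −0.05 at 48 hours and 0.02 at 7 days over all genes, and were not tested as sets.

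**Figure D4:**
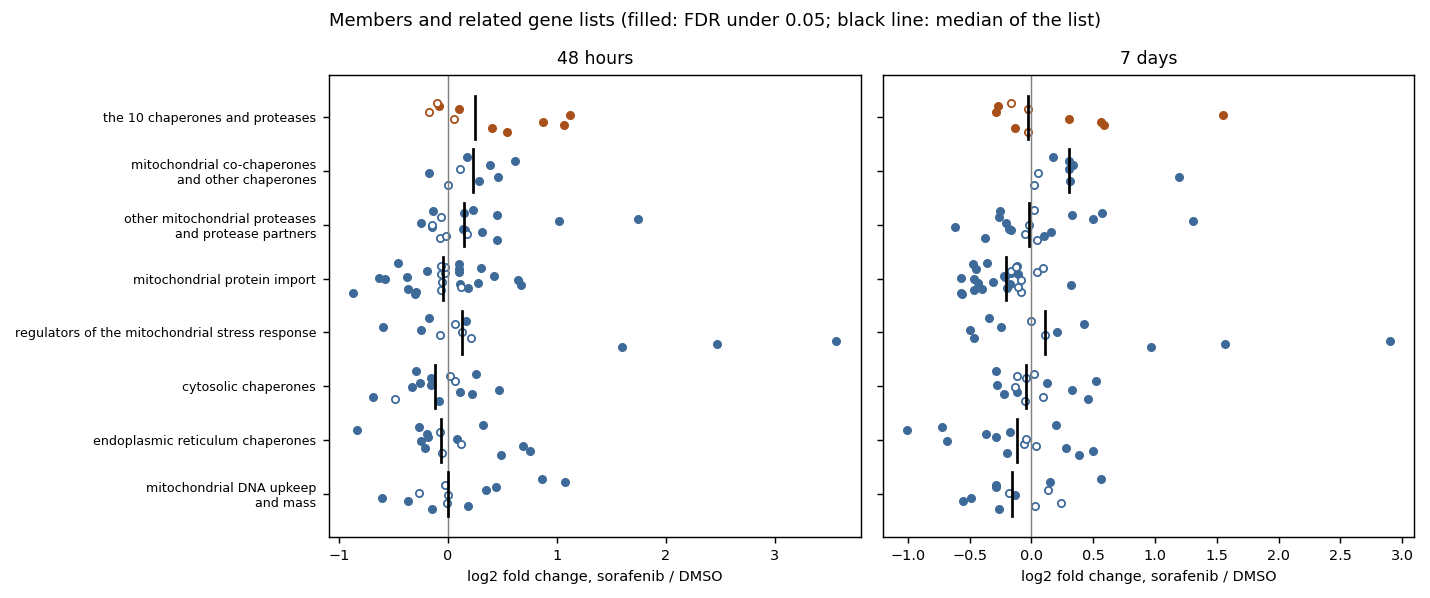
Log2 fold changes of sorafenib against DMSO at 48 hours (left) and 7 days (right) for the 10 genes and 7 related lists. Each point is a gene, filled where its FDR is under 0.05, and the black line is the median of the list, which for protein import is −0.04 at 48 hours and −0.20 at 7 days.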

How the data were processed

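Counts of mRNA reads per gene were analysed in 16 libraries. Per the labels and the study's methods, the authors isolated RNA with a column kit, prepared libraries with a stranded, poly(A)-selecting kit, and aligned reads to GRCm39. The submitters' processing notes name STAR 2.7.1a, featureCounts 2.0.6 and DESeq2 1.40.2. The deposited values are raw counts, whole numbers for 40840 genes with no normalization or pooling. The strand setting and annotation of the counting are not given in the sources used here.

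Genes with fewer than 10 counts over all samples were removed (20396 genes). The test was the quasi-likelihood test of edgeR 4.0.16 in R 4.3.3 (TMM, Benjamini-Hochberg FDR under 0.05) in 1 model of the 4 groups without a block. Contrasts compared sorafenib with DMSO at each time, the 2 responses, and the times within each treatment. Normalized counts are counts divided by the library's scaled size, relative to the geometric mean of that size over libraries. Exact permutation tests used log2 values with a pseudocount of 0.5. The members and lists were chosen with earlier results of these data known. Named genes were the 10 members, all regulators, the 3 genes with the largest absolute log2 fold change per time in every other list among those averaging at least 100 normalized counts, and the 5 genes most like Hspd1 and Lonp1. Hspa1a and Vdac1 are named besides, as relatives of named genes. Positions and sequence come from GRCm39 with GENCODE annotation, canonical transcripts.

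On simulated data for 48 hours with 19352 genes, 198 of 200 changed genes were recovered, with 11 false calls. The simulation changed few genes, up and down alike, and held no lowered stretch. In the data 54.6% of genes were called at 48 hours, so that these figures need not hold there. Replicates differed by more than counting error (lowest chi-square per gene 1.49, against 1), so none was counted as a repeat. Alternatives were DESeq2 1.42.0, other scalings and filters, a fold threshold, 1 time point alone, a replicate block, an offset for the lowered stretch, and each library left out. The stretch was located from 10370 genes as the split with the largest difference in deviation from the other replicates, limited to 1.5, with at least 100 genes on a side. With a library left out, filter and scaling were made anew.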

Additional observations from a re-analysis of the deposited data

Results flagged for a closer look

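In 40 sets of 4 libraries (10 genes in 4 groups), 3 had a library whose gap to its nearest neighbour took up most of the range of the group, and chance gives about 1 in 20 such sets. For Trap1 and Afg3l2 this was replicate 2 of sorafenib at 48 hours, with gaps of 0.881 and 0.855 of the range, the library whose counts were lowered over the stretch that holds both genes. For Hspd1 it was replicate 2 of sorafenib at 7 days, the highest of its group by 0.872 of a narrow range (28199.6 to 29169 normalized counts).

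For 5 genes the response to sorafenib at 7 days differed from that at 48 hours in edgeR's test of the interaction. The log2 fold change at 7 days minus that at 48 hours was −0.57 for Hspd1, −0.54 for Hspe1, −0.48 for Hspa9, −0.19 for Yme1l1 and 0.43 for Lonp1. For Hspd1 and Hspe1 the DMSO libraries of 7 days were at about the level of the sorafenib libraries of 48 hours.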

How the results depend on the processing

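The number of members called moved by over 1.5 times under the alternatives given here. An offset for the lowered stretch of replicate 2 of sorafenib at 48 hours gave 9 members whose responses differed between times, 10 that differed between the DMSO times and 7 between the sorafenib times, against 5, 6 and 2 in the reported fit. Of 20444 genes tested, 8848, 11119 and 9319 were called with the offset in these comparisons, against 7515, 10100 and 8120. With single libraries left out the members called ranged from 6 to 8 at 48 hours, 7 to 8 at 7 days, 5 to 9 for the difference, 6 to 10 for DMSO over time and 1 to 7 for sorafenib over time, and each upper end was the fit without replicate 2 of sorafenib at 48 hours. Genes called ranged from 10609 to 11608, 10981 to 12590, 7073 to 8761, 9419 to 11242 and 7355 to 9047 in these comparisons. A minimum absolute log2 fold change of 1 left 2, 1, 0, 0 and 0 members, and 3690, 4202, 1965, 2242 and 1727 genes. For sorafenib over time, 1 member was called by DESeq2, with DESeq2-type size factors, with total counts and with at least 10 counts in every sample. Genes called in these fits were 8040, 8138, 7982 and 7168, the last of 12158 tested. Total counts moved the median log2 fold change of all genes at 48 hours to −0.12 from −0.05.

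The replicate numbers did not pair the libraries: same-numbered libraries deviated together with r from −0.05 to 0.12, and 4 of 16 were most like their own number. With a replicate block 5, 7 and 5 members and 10644, 11027 and 6987 genes were called at 48 hours, at 7 days and for the difference, and the calls of Clpx (FDR 0.0634) and Yme1l1 (FDR 0.051) at 48 hours were lost.

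Values that changed sign were near 0 and were not called in the reported fit. With at least 10 counts in every sample, Hspd1 at 7 days was at 0.0021, Clpx at 0.0017 and Sirt7 at 0.022. Total counts gave −0.012 for Trap1, −0.00017 for Sirt3 and −0.0027 for Hspb1 at 48 hours, 0.019 for Sirt7 at 7 days and 0.027 for the difference of Afg3l2. Without a filter Sirt7 was at 0.019, and with the offset Afg3l2 was at 0.033 and Hsf1 at 0.066 at 48 hours. With 1 library left out in turn, values at 48 hours ranged from −0.025 to 0.20 for Trap1, −0.19 to 0.029 for Afg3l2, −0.15 to 0.025 for Hsf1, −0.037 to 0.12 for Sirt3 and −0.038 to 0.11 for Hspb1. The range for Sirt7 at 7 days was −0.023 to 0.0075, and that for the difference of Afg3l2 −0.20 to 0.017. Apart from the lowered library and the stricter threshold, the cause was not tested.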
